A study of Homo sapiens with 12 samples.

Results

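The genes described here are the members of the human HOX clusters, taken as every row of the count table whose symbol is HOX, a cluster letter from A to D and a number. The rule found 39 genes among the 26475 gene symbols of the table, with 11 in HOXA, 10 in HOXB, 9 in HOXC and 9 in HOXD, and it left out the antisense transcripts of the clusters. RNA was sequenced from 2 human ovarian tumor cell lines, PA-1 and SK-OV-3, each in 3 libraries of cells given DMSO, the vehicle, and 3 libraries of cells given 5 µM BAY-850 for 48 h. PA-1 was derived from a teratocarcinoma and was grown in DMEM, and SK-OV-3 was derived from an adenocarcinoma and was grown in RPMI, both with fetal bovine serum, so that the line and its medium cannot be told apart. BAY-850 is an inhibitor of ATAD2, a chromatin-bound ATPase whose bromodomain recognizes acetylated histones. Each line is a single model of its tumor type, and the libraries of a group are cultures of that line.

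HOX genes encode homeodomain transcription factors that give cells of the embryo their position along the head-to-tail axis. Within a cluster the genes lie in the order in which they are used along that axis, from the anterior group 1 to the posterior group 13, and genes with the same number in different clusters are paralogs. Polycomb complexes keep the clusters silent in pluripotent cells, trithorax and MLL complexes keep them active, retinoic acid switches on their anterior ends, and HOX proteins bind DNA with partners of the TALE class such as PBX and MEIS. In the female reproductive tract the posterior HOXA genes pattern the Müllerian duct, from the oviduct to the vagina.

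On GRCh38 the HOXA cluster lies on chromosome 7 from 27092993 to 27200106 on the minus strand, and HOXB lies on chromosome 17 from 48528526 to 48729178, also on the minus strand. HOXC lies on chromosome 12 from 53938765 to 54056030 and HOXD on chromosome 2 from 176092891 to 176190907, both on the plus strand. All 39 genes are protein-coding in GENCODE v29. For 10 of them an exon overlaps an exon of another gene on the same strand, among them HOXB3 with HOXB4 and HOXB6, HOXC6 with HOXC4 and HOXC9, and HOXD10 with HOXD11, and the split of reads within those sets is an estimate. Exons of 19 members overlap a gene on the other strand.

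Library totals were between 34544505 and 51840233 counts. The HOX genes together received 568 to 731 counts in each PA-1 library and 20629 to 29905 counts in each SK-OV-3 library. Levels are given as CPM, counts scaled to a common library size, after TMM scaling over the 12 libraries, with the SD over 3 libraries. A count of 0 in a library allows a level of up to 3 counts, which is 0.0559 to 0.0868 CPM, and this limit covers counting error only. In RNA from whole cultures, more cells that use a gene and more RNA per cell cannot be told apart. SK-OV-3 BAY-850 replicate 3 stood apart, with the highest total and 15634 genes with a count against 17437 to 18440 in the other 11 libraries. It had a count for 25 HOX genes against 33 or 34 in the other SK-OV-3 libraries, and 6 members with a count in each of those 5 libraries (HOXA6, HOXA7, HOXA9, HOXA11, HOXC6 and HOXD10, at most 30 counts) were at 0 in it. The calls after BAY-850 in SK-OV-3 among the HOX, Polycomb, MLL and retinoid genes are therefore given with and without this library, while other levels and values are given with it.

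The lines were checked against markers of their labelled origin. All 7 markers of pluripotent cells were higher in PA-1, including LIN28A at 756 ± 56.0 CPM (SD, n = 3) under DMSO against 0.102 ± 0.101 CPM in SK-OV-3 and SOX2 at 224 ± 9.72 CPM against a count of 0 in every SK-OV-3 DMSO library. Of 9 markers of ovarian epithelial tumors, 7 were higher in SK-OV-3, including PAX8 at 223 ± 7.28 CPM against 0.369 ± 0.395 CPM. The exceptions were KRT18 and WT1, which were higher in PA-1, and MUC16, the gene of the CA125 antigen, was only at 0.738 ± 0.312 CPM in SK-OV-3.

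In PA-1 most HOX genes gave few or no counts, while SK-OV-3 used nearly the whole HOXB cluster, most of HOXD and parts of HOXA. A mean of 1 CPM or more was reached by 5 members in PA-1 under DMSO (among them HOXA3, HOXA7, HOXC13 and HOXD13) and by 21 members in SK-OV-3 under DMSO. No count in any of the 3 libraries was found for 19 members in PA-1 under DMSO and for 4 members in SK-OV-3 under DMSO. HOXC11, HOXC12 and HOXD12 had no count in any of the 12 libraries, and HOXB1, which patterns the hindbrain, had 1 count in 1 library.

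**Figure D1:**
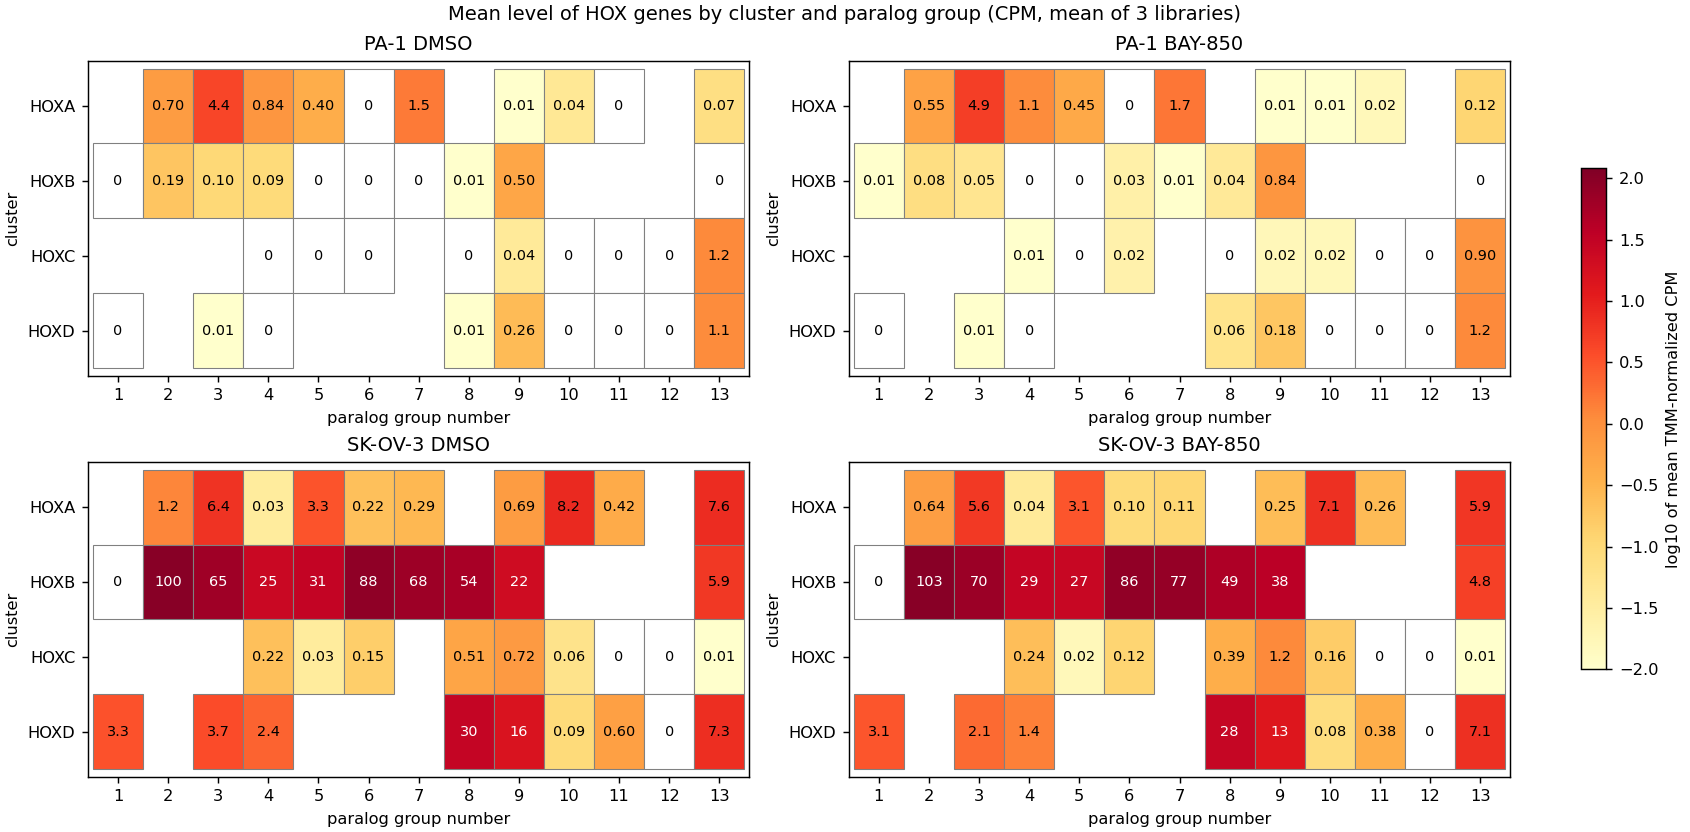
Mean level of HOX genes (TMM-normalized CPM, mean of 3 libraries) in the 4 groups, with the cluster on the vertical axis, the paralog group number on the horizontal axis and color on a log10 scale; white cells with a 0 had no count and positions without a box hold no gene or none shown here. The HOXB row is dark from HOXB2 to HOXB9 in SK-OV-3 and nearly empty in PA-1, where HOXA3 and HOXA7 are among the highest.

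The clusters contributed very different shares in the 2 lines. In PA-1 under DMSO the summed level was 13.4 ± 0.829 CPM for HOXA, 0.897 ± 0.659 CPM for HOXB, 1.21 ± 0.220 CPM for HOXC and 1.39 ± 0.137 CPM for HOXD, so that HOXA held 79.3% of the HOX total (77.6% to 80.8% over libraries). In SK-OV-3 under DMSO the sums were 32.5 ± 1.22 CPM for HOXA, 459 ± 20.3 CPM for HOXB, 1.70 ± 0.230 CPM for HOXC and 62.6 ± 1.496 CPM for HOXD, and HOXB held 82.5% (81.7% to 83.6%). The 3 SK-OV-3 libraries under DMSO were above the 3 PA-1 libraries under DMSO in every cluster. HOXC was the lowest cluster in SK-OV-3, and none of its 9 genes reached 1 CPM there under DMSO.

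**Figure D2:**
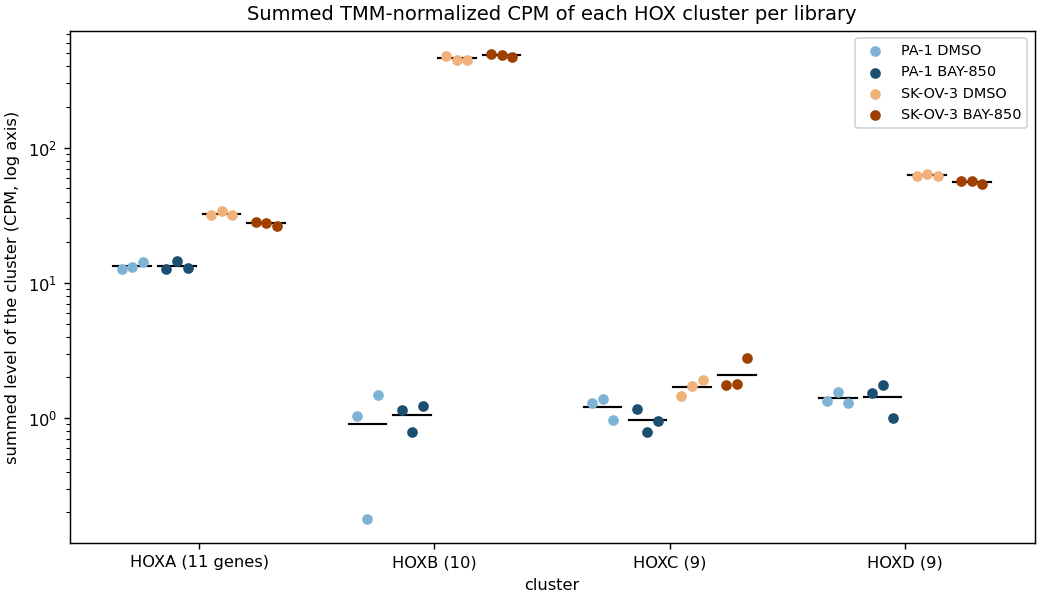
Summed TMM-normalized CPM of each HOX cluster (vertical log axis) in each of the 12 libraries, with 3 points and a line at the mean for each of the 4 groups. HOXB lies between 0.177 and 1.47 CPM in PA-1 and between 446 and 491 CPM in SK-OV-3, while the BAY-850 points lie close to the DMSO points of the same line.

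Position along the clusters differed between the lines as well. Genes of groups 1 to 3 (anterior), 4 to 8 (central) and 9 to 13 (posterior) held 63.7%, 17.2% and 19.1% of the HOX total in PA-1 under DMSO, and 33.2%, 54.4% and 12.5% in SK-OV-3 under DMSO. Within HOXA the anterior genes held 78.2% of the cluster's sum in PA-1, and the posterior genes held 0.950%. In SK-OV-3 the posterior HOXA genes held 52.0% of the sum, almost all of it from HOXA10 and HOXA13, which pattern the uterus and the most caudal Müllerian duct. HOXA9, which marks the oviduct, was at 0.691 ± 0.124 CPM, and HOXA11, which marks the lower uterus, was at 0.424 ± 0.129 CPM.

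Levels per kilobase of transcript allow a comparison between genes. In PA-1 under DMSO the highest members included HOXA3 at 1.34 ± 0.124 CPM per kb, HOXA7 at 0.768 ± 0.134, HOXD13 at 0.499 ± 0.0585 and HOXA4 at 0.487 ± 0.0744 CPM per kb. HOXD13, HOXA4 and the next gene, HOXC13, at 0.484 ± 0.0757 CPM per kb, differed by less than their SD. In SK-OV-3 under DMSO the order was HOXB2 at 64.3 ± 4.31 CPM per kb, HOXB7 at 49.6 ± 2.80, HOXB6 at 48.4 ± 2.69, HOXB8 at 41.9 ± 1.97 and HOXB3 at 35.3 ± 1.73 CPM per kb. HOXB7 and HOXB6 differed by less than their SD. With the length of all exons in place of the median coding transcript, a choice made after the data were seen, HOXB7 was first at 44.5 CPM per kb and HOXB3 fell to rank 7 at 8.72 CPM per kb.

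The comparison of the DMSO groups asked how the lines differed before treatment. Of 29 members that passed the filter on low counts, 27 had an adjusted p under 0.05 in edgeR's quasi-likelihood test (Benjamini-Hochberg adjustment), where 80.3% of all 16070 genes tested did. There were 24 members higher in SK-OV-3, against 40.1% of all genes, and 3 lower, against 40.2%. The libraries of the 2 lines did not overlap for any of the 29, as for 82.3% of all genes (41.1% higher and 41.2% lower). A gene that is silent in 1 line passed the filter only through the other, so that these 29 had to differ more often than genes used in both. The median log2 ratio over the 29 was 5.46 with the 9 members at 0 in PA-1 held at their lower bound, and the median fitted log2 fold change of all genes was 0.0019.

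The members of HOXB with a count in SK-OV-3 were all higher there. HOXB6 had 3703, 3173 and 3308 counts in the SK-OV-3 DMSO libraries and 0 in each PA-1 DMSO library, a level at least 1104-fold higher in SK-OV-3. HOXB7 had 2863, 2548 and 2484 counts against 0 in each PA-1 library, at least 856-fold higher. HOXB5 had 1323, 1124 and 1133 counts against 0, at least 388-fold higher. These 3 genes specify cervical and thoracic levels of the body axis, and no PA-1 DMSO library overlapped an SK-OV-3 library.

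HOXB2, a hindbrain gene, had 4299, 3620 and 3755 counts in SK-OV-3 against 8, 0 and 12 in PA-1, a ratio of 528. HOXB3 had 2697, 2327 and 2535 counts against 4, 0 and 7, a ratio of 622. HOXB8 had 2253, 1974 and 2021 counts against 0, 1 and 0, a ratio of 7273 whose 95% counting interval ran from 1110 to 244427. The PA-1 counts of these genes were so few that the ratios of HOXB2 and HOXB3 are known only to their order of size. For HOXB8 not even the order of size is known.

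HOXB4, known for the expansion of blood stem cells, was at 25.2 ± 2.24 CPM in SK-OV-3, and all 10 of its PA-1 DMSO counts came from replicate 3. HOXB9 was the member of HOXB with the highest level in PA-1, with 24, 7 and 23 counts against 832, 832 and 888 in SK-OV-3, a ratio of 44.0. HOXB13, the prostate gene at the far end of the cluster, was at 5.85 ± 0.605 CPM in SK-OV-3 and had no count in PA-1, at least 73.7-fold higher.

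In HOXD the gene HOXD8 led in SK-OV-3 with 1115, 1173 and 1138 counts against 0, 0 and 1 in PA-1, a ratio of 3130 whose 95% counting interval ran from 609 to 134045, followed by HOXD9 with 612, 611 and 592 counts against 10, 13 and 7. HOXD13, the digit gene, was used in both lines, at 7.32 ± 0.513 CPM in SK-OV-3 and 1.12 ± 0.131 CPM in PA-1 (log2 difference 2.70, standard error 0.206, adjusted p = 7.12e-08 by edgeR's quasi-likelihood test). Between HOXD9 and HOXD13 the genes were low or silent in SK-OV-3, with HOXD10 at 0.0944 ± 0.0387 CPM and HOXD11 at 0.604 ± 0.464 CPM. HOXD1, HOXD3 and HOXD4, at the anterior end, were between 2.43 and 3.73 CPM in SK-OV-3 and had 1 count in all in the PA-1 DMSO libraries.

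Only 3 members passed the test as lower in SK-OV-3, and 2 of them lie in the central part of HOXA. HOXA4 had 31.1, 42 and 24.5 counts in PA-1 under DMSO and 0, 2 and 2 in SK-OV-3, a level 24.1-fold higher in PA-1 (adjusted p = 7.30e-05 by edgeR's quasi-likelihood test). HOXA7 had 45, 68 and 65 counts against 7.22, 12.07 and 13.99, a level 5.38-fold higher in PA-1 (adjusted p = 0.000213). HOXC13, the hair and nail gene at the posterior end of HOXC, had 44, 58 and 34 counts against 1, 0 and 0, with a ratio of 140 whose counting interval for SK-OV-3 over PA-1 ran from 0.000183 to 0.0413. For these 3 genes every PA-1 library lay above every SK-OV-3 library.

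HOXA2, a hindbrain gene, did not pass the test between lines. It had 20, 41 and 22 counts in PA-1 against 56, 43 and 44 in SK-OV-3, a log2 difference of 0.79 (adjusted p = 0.0755 by edgeR's quasi-likelihood test), and it passed with edgeR's likelihood ratio test, with a minimum of 10 counts in every library and without PA-1 DMSO replicate 2. HOXA3, which patterns the pharyngeal arches, had 156, 176 and 165 counts against 260, 258 and 225 and was higher in SK-OV-3 by 0.55 on the log2 scale (standard error 0.171, adjusted p = 0.00982).

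Within a paralog group, 1 cluster usually gave most of the level, and it was often not the same cluster in the 2 lines. In groups 2 to 7 HOXB gave 86.5% to 99.6% of the group's summed CPM in SK-OV-3 under DMSO. In PA-1 under DMSO the HOXA member led groups 2 to 5 and 7, with 78.7% to 100% of the sum, and group 6 had no count. Group 9 was led by HOXB9 in both lines, with 61.9% in PA-1 and 56.3% in SK-OV-3.

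The start regions of 4 members with contrasting levels are shown to give the sequence context of the genes, and they were chosen after the levels were seen from the 20 members with an entry among RefSeq promoter windows of GRCh38.p14. Each window runs from 250 bases before to 50 bases after an annotated start, is written 5′ to 3′ on the gene's strand, and has every CG dinucleotide in capitals. HOXD8 (chr2:176129455-176129754, plus strand) was used in SK-OV-3 and nearly silent in PA-1, HOXD12 (chr2:176099545-176099844, plus strand) had no count in any library, HOXD13 (chr2:176092471-176092770, plus strand) was used in both lines, and HOXA7 (chr7:27156626-27156925, minus strand) was higher in PA-1.
HOXD8: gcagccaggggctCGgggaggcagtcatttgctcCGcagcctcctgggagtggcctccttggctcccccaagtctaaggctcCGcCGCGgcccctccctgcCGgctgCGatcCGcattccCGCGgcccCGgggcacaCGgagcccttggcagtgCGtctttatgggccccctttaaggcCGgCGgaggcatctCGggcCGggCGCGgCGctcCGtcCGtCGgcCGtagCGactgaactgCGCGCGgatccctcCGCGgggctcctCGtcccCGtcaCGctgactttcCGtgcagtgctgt
HOXD12: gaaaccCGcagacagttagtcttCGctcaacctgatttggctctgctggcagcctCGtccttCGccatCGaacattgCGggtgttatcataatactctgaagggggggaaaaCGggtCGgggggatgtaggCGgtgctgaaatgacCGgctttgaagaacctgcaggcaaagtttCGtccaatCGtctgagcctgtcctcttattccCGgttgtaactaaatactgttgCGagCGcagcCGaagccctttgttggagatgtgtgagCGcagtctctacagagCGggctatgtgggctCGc
HOXD13: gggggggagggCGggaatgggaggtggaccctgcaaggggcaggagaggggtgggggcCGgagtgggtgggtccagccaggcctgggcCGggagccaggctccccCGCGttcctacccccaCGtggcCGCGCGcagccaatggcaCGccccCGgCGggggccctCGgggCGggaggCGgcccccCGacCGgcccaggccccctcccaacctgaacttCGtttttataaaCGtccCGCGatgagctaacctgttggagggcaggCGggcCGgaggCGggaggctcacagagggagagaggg
HOXA7: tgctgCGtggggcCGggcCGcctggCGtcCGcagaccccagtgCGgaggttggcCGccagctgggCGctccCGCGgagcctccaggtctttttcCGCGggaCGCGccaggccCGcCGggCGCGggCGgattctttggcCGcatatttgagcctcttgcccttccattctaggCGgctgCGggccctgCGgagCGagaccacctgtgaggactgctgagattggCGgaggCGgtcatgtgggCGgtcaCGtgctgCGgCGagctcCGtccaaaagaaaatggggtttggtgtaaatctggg
The windows held 34 CG dinucleotides for HOXD8, 19 for HOXD12, 24 for HOXD13 and 31 for HOXA7. The 27 windows of the 20 members had a median of 22, and the 22183 windows of all coding genes had a median of 21. HOXA3 alone accounts for 7 of the 27 windows and HOXA10 for 2. HOXC4 and HOXC5 have the same window, which was counted for each of them. HOXB1 is the only HOXB member with a window, so the HOXB genes used in SK-OV-3 are not covered.

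The same 27 windows were searched on both strands for 4 short motifs. The letters ACGTG, the core of hypoxia and related elements, were in 55.6% of the HOX windows and 23.1% of all coding windows. TGATNNAT, the paired site of PBX and HOX proteins, was in 11.1% against 5.21%, and TATAAA was in 18.5% against 9.47%. AGGTCA, a retinoid receptor half-site, was in 0% of the HOX windows against 11.9%. Of the windows printed above, HOXD13 and HOXA7 held ACGTG, and HOXD13 held TATAAA. A match describes the letters of the window only.

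BAY-850 was compared with DMSO within each line to ask which members responded to 5 µM of the compound after 48 h. In PA-1 none of the 10 members tested passed an adjusted p of 0.05 by edgeR's quasi-likelihood test, where 7.13% of all 15212 genes did (4.65% higher and 2.48% lower). An unadjusted p under 0.05 was found for 0 of the 10 and for 3618 of the 15212 genes. DESeq2, edgeR's likelihood ratio test and limma-voom also called 0 of the 10, against 11%, 10.4% and 7.19% of all genes. The median log2 fold change of the 10 was 0.094, and that of all genes was -0.0019. The median of the 10 was -0.17 without BAY-850 replicate 2, -0.056 without DMSO replicate 3 and 0.0063 without DMSO replicate 1. The DMSO and BAY-850 libraries did not overlap for 2 of the 10, as for 27.5% of all genes (14.1% higher and 13.3% lower).

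Among these was HOXA4, which was higher. It was at 0.899, 0.931 and 0.694 CPM under DMSO and at 1.24, 1.14 and 0.994 CPM after BAY-850, a log2 change of 0.41 (95% interval -0.27 to 1.10, adjusted p = 0.519 by edgeR's quasi-likelihood test). The interval included 0.

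HOXA3 was at 4.51, 3.90 and 4.67 CPM under DMSO and at 4.27, 5.18 and 5.34 CPM after BAY-850 in PA-1, and the groups overlapped. HOXA7 was at 1.30, 1.51 and 1.84 CPM under DMSO and at 1.41, 1.88 and 1.74 CPM after BAY-850. HOXD13 was at 1.01, 1.26 and 1.08 CPM under DMSO and at 1.19, 1.40 and 0.947 CPM after BAY-850. HOXA7 and HOXD13 overlapped as well, and the 95% intervals of their log2 fold changes ran from -0.44 to 0.67 and from -0.58 to 0.73, so that changes of up to about these sizes cannot be told from none.

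The other PA-1 members tested were HOXA2, HOXA5, HOXB9, HOXC13 and HOXD9, with log2 fold changes from -0.49 (HOXD9) to 0.78 (HOXB9). The remaining 29 members did not pass the filter in PA-1. With BAY-850, 5 members were at 1 CPM or more, with HOXA4 in and HOXC13 out of the set found under DMSO, and 13 members had no count. The members without a count under DMSO that had counts after BAY-850 had at most 3 counts in total across the 3 libraries.

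In SK-OV-3, HOXB9 rose and no other member passed the test. Among 26 members tested, this was 1 with an adjusted p under 0.05, against 20.4% of all 15348 genes (10.8% higher and 9.56% lower), and 5 had an unadjusted p under 0.05, as did 5116 of the 15348 genes. Leaving out 1 library gave 1 (DMSO replicate 3) to 8 (BAY-850 replicate 3) members at that level. HOXB9, on chromosome 17 from 48621159 to 48626356, had 832, 832 and 888 counts under DMSO and 1603, 1605 and 1925 after BAY-850. In CPM it was at 20.9, 22.0 and 23.0 under DMSO and at 39.4, 38.0 and 35.8 after BAY-850. Every BAY-850 library lay well above every DMSO library. The log2 fold change was 0.79 (standard error 0.0781, 95% interval 0.64 to 0.95, adjusted p = 3.87e-05 by edgeR's quasi-likelihood test), and it passed in all 18 alternatives, with values from 0.76 to 0.84 and adjusted p from 3.91e-16 to 0.00537. HOXB9 takes part in the patterning of the thorax and the mammary gland.

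**Figure D3:**
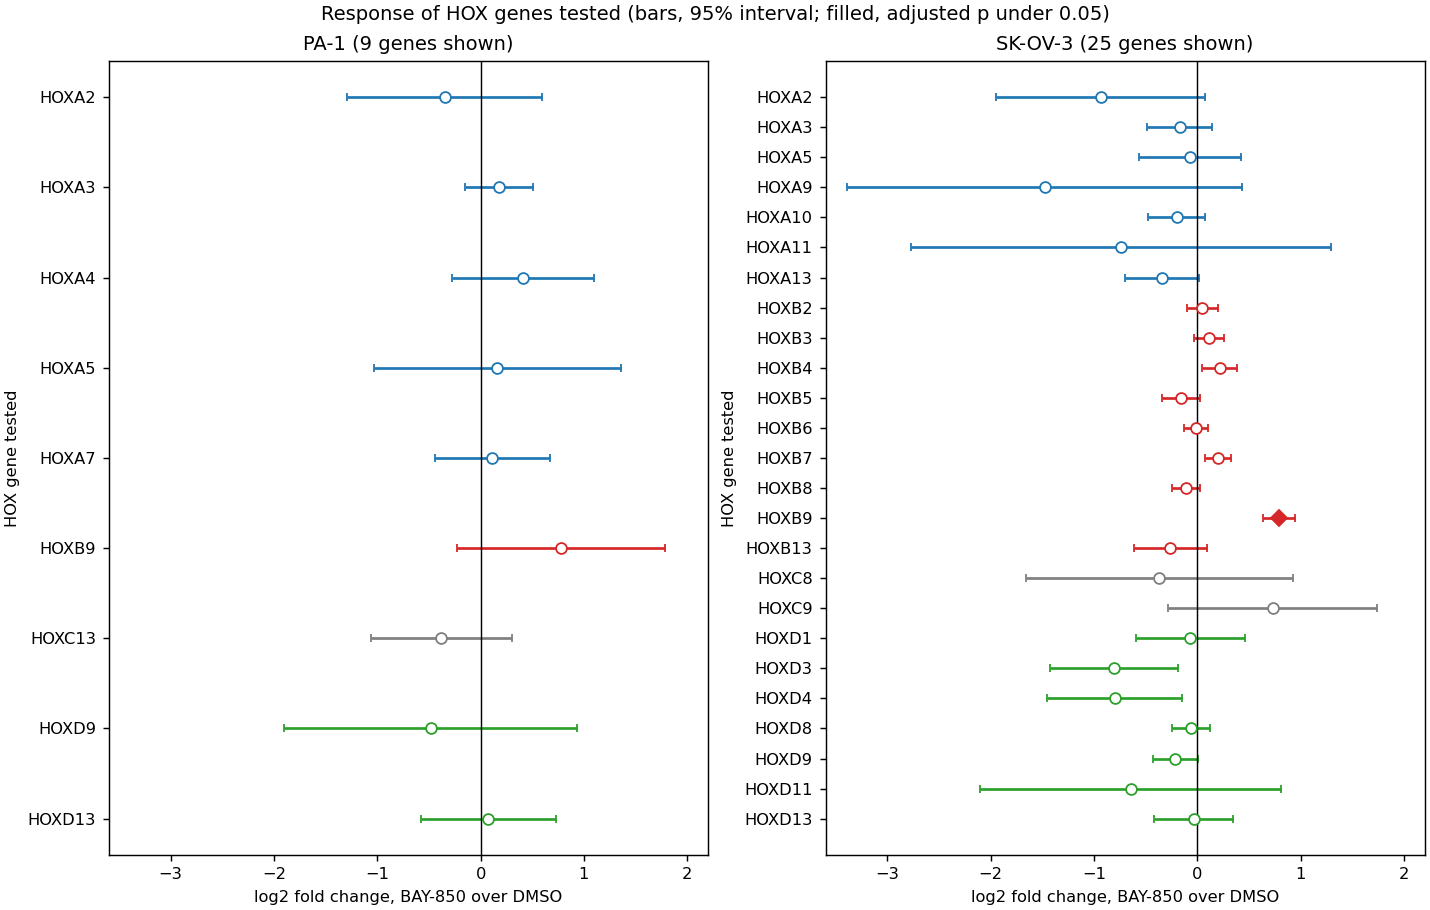
Log2 fold change of BAY-850 over DMSO (horizontal axis) with its 95% interval for 9 of the 10 members tested in PA-1 and 25 of the 26 tested in SK-OV-3, colored by cluster. The filled diamond of HOXB9 in SK-OV-3, at 0.79, is the only member past the adjusted p of 0.05, and the 7 HOXD members tested in SK-OV-3 all lie left of 0.

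The members next to HOXB9 had smaller values. HOXB7 was at 72.02, 67.4 and 64.4 CPM under DMSO and at 75.4, 76.9 and 79.6 CPM after BAY-850, without overlap (log2 fold change 0.20, standard error 0.0663, adjusted p = 0.0541 by edgeR's quasi-likelihood test). It passed in 6 of 18 alternatives and had an adjusted p between 0.0265 and 0.197 over all of them. HOXB8 was at 56.7, 52.2 and 52.4 CPM under DMSO and at 51.4, 51.3 and 45.6 CPM after BAY-850, also without overlap, with a log2 change of -0.11 (95% interval -0.25 to 0.027, adjusted p = 0.308).

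Farther toward the anterior end, HOXB6 was at 93.1, 84.0 and 85.8 CPM under DMSO and at 88.5, 85.4 and 84.7 CPM after BAY-850, and its 95% interval ran from -0.13 to 0.11 on the log2 scale. HOXB4 was at 23.5, 27.8 and 24.4 CPM under DMSO and at 30.2, 28.7 and 28.2 CPM after BAY-850, without overlap (log2 fold change 0.21, standard error 0.0881, adjusted p = 0.111 by edgeR's quasi-likelihood test). HOXB3 was at 67.8, 61.6 and 65.7 CPM under DMSO and at 66.7, 67.4 and 75.2 CPM after BAY-850, where the library at 75.2 was replicate 3. The groups of HOXB6 and HOXB3 overlapped.

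HOXB2, the member with the highest level per kilobase, was at 108, 95.8 and 97.3 CPM under DMSO and at 108, 110 and 90.7 CPM after BAY-850, and its 95% interval ran from -0.10 to 0.20. HOXB5 and HOXB13 had log2 fold changes of -0.16 and -0.26, with adjusted p of 0.271 and 0.350 by edgeR's quasi-likelihood test. The sum of HOXB was 459 ± 20.3 CPM under DMSO and 485 ± 9.55 CPM after BAY-850, and the groups overlapped (446 to 482 CPM and 474 to 491 CPM). The sums of HOXA and HOXD, which were not tested, were lower after BAY-850, from 31.8 to 33.9 CPM under DMSO to 26.6 to 28.4 CPM after BAY-850 for HOXA, and from 61.4 to 64.3 CPM to 53.9 to 56.5 CPM for HOXD, both without overlap. HOXB held 81.7% to 83.6% of the HOX total under DMSO and 85.0% to 85.1% after BAY-850.

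**Figure D4:**
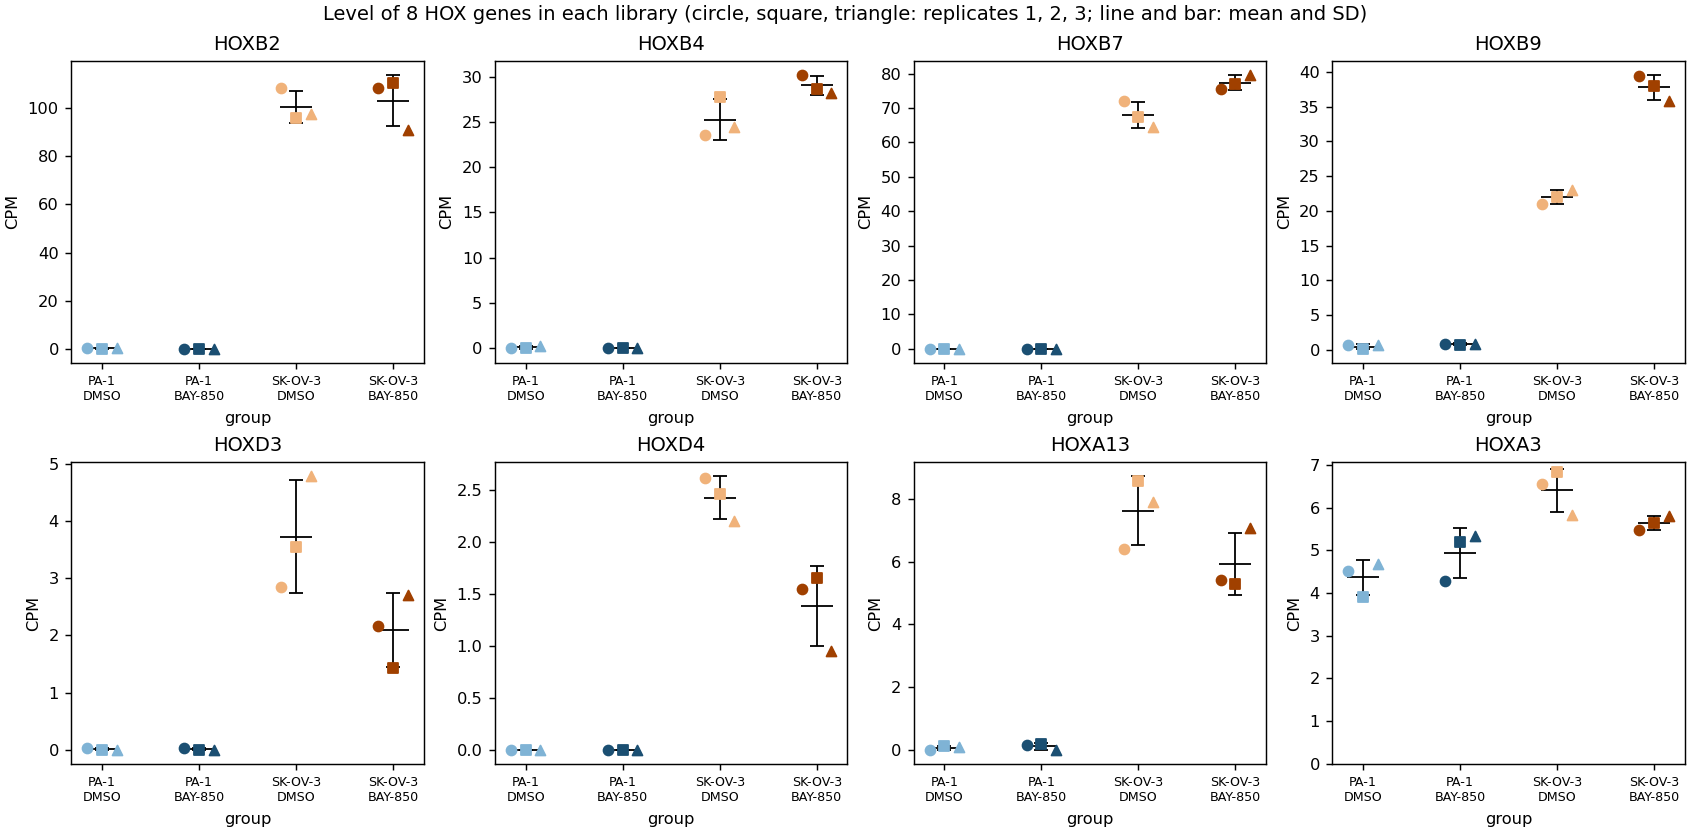
Level (CPM, vertical axis from 0) of 8 HOX genes in each library of the 4 groups, with circles, squares and triangles for replicates 1, 2 and 3 and a line and bar for the mean and SD. HOXB9 separates most clearly, from 20.9 to 23.0 CPM under DMSO to 35.8 to 39.4 CPM after BAY-850 in SK-OV-3, while HOXA3 lies between 3.90 and 6.83 CPM in all 12 libraries.

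None of the paralogs of HOXB9 passed the test. In SK-OV-3, HOXD9 was at 15.4, 16.2 and 15.3 CPM under DMSO and at 12.6, 12.8 and 14.5 CPM after BAY-850, lower without overlap (log2 fold change -0.22, 95% interval -0.43 to 0.0023, adjusted p = 0.204 by edgeR's quasi-likelihood test). HOXA9 was at 0.553, 0.794 and 0.726 CPM under DMSO and at 0.443, 0.308 and 0 CPM after BAY-850, where replicate 3 held the 0. HOXC9 was at 0.579, 0.767 and 0.804 CPM under DMSO and at 0.738, 1.04 and 1.73 CPM after BAY-850, with the highest value again in replicate 3. HOXB9 gave 56.3% of the summed CPM of group 9 under DMSO and 71.9% after BAY-850.

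Most other members tested in SK-OV-3 lay below 0, down to -1.48 for HOXA9. Log2 fold changes were below 0 for 19 of 26 members and for 7861 of all 15348 genes. The median was -0.13 against -0.0091 over all genes. DMSO and BAY-850 libraries did not overlap for 11 of 26 members (3 higher and 8 lower), as for 38.6% of all genes (18.1% higher and 20.5% lower). Below 0 were 7 of 8 members of HOXA, 4 of 9 of HOXB, 1 of 2 of HOXC and 7 of 7 of HOXD. Without BAY-850 replicate 3, 17 of 27 members were below 0, with a median of -0.17, and 5 of 7 in HOXD. With the GC content trend or the gene length trend of each library removed, 17 of 26 were below 0, with medians of -0.10 and -0.092, and 6 of 7 in HOXD. Without DMSO replicate 1, 16 of 28 were below 0, and 5 of 7 in HOXD.

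HOXD3 and HOXD4, neighbors that pattern the hindbrain and neck, were the lower members whose 95% intervals lay below 0. HOXD3 was at 2.84, 3.55 and 4.80 CPM under DMSO and at 2.17, 1.42 and 2.70 CPM after BAY-850, a log2 change of -0.81 (standard error 0.316, adjusted p = 0.0962 by edgeR's quasi-likelihood test). HOXD4 was at 2.62, 2.46 and 2.203 CPM under DMSO and at 1.55, 1.66 and 0.950 CPM after BAY-850, a log2 change of -0.80 (standard error 0.335, adjusted p = 0.118). Neither gene overlapped between groups and neither passed the test.

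Leaving out BAY-850 replicate 3 changed which members passed. Without it, 3 of 27 members had an adjusted p under 0.05, against 24.9% of all 15674 genes, and these were HOXB9, HOXD3 and HOXA13. HOXD3 then had a log2 change of -1.05 (adjusted p = 0.0188 by edgeR's quasi-likelihood test) and HOXA13 of -0.51 (adjusted p = 0.0355). With all libraries HOXA13 was at 6.41, 8.57 and 7.91 CPM under DMSO and at 5.41, 5.31 and 7.08 CPM after BAY-850, where replicate 3 held the 7.08 (log2 fold change -0.34, adjusted p = 0.220). Without this library the log2 fold change was 0.12 for HOXB2, 0.045 for HOXB3, 0.22 for HOXB4, -0.011 for HOXB6, 0.16 for HOXB7, -0.066 for HOXB8 and -0.60 for HOXD4, and none of these passed.

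The remaining members of HOXA, HOXC and HOXD in SK-OV-3 gave no call. HOXA10, the uterine gene, was at 8.19 ± 0.681 CPM under DMSO and at 7.07 ± 0.294 CPM after BAY-850. HOXD8 was at 29.5 ± 1.49 and 28.1 ± 3.37 CPM, HOXD13 at 7.32 ± 0.513 and 7.06 ± 1.78 CPM, and HOXD1 at 3.31 ± 0.240 and 3.14 ± 0.931 CPM. HOXC4 had 8, 10 and 8 counts under DMSO and 1, 0 and 37 after BAY-850, with the 37 in replicate 3, and it did not pass the filter. In all, 13 members did not pass the filter in SK-OV-3, and 21 were at 1 CPM or more after BAY-850, with HOXC9 in and HOXA2 out of the set found under DMSO.

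Whether the response differed between lines was tested with an interaction term over all 12 libraries. None of 29 members passed an adjusted p of 0.05 by edgeR's quasi-likelihood test, where 14.5% of all 16830 genes did (6.7% higher in SK-OV-3 and 7.77% lower). An unadjusted p under 0.05 was found for 2 of the 29 and for 4751 of the 16830 genes. DESeq2 and limma-voom also called 0, against 19.4% and 14.2% of all genes, and edgeR's likelihood ratio test called 1, against 19.5%. Only 10 members passed the filter on low counts within PA-1. For most of the 29, the PA-1 counts were too few for a difference between lines to be judged. HOXB9 had a log2 change of 0.78 (standard error 0.511, adjusted p = 0.389) in PA-1, from 0.694, 0.155 and 0.651 CPM under DMSO to 0.922, 0.686 and 0.921 CPM after BAY-850. The difference between lines was -0.039 (standard error 0.347, 95% interval -0.72 to 0.64, adjusted p = 0.984).

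The 2 members with an unadjusted p under 0.05 were HOXB4 and HOXD8, and both rested on PA-1 counts near 0. HOXB4 had 0, 0 and 10 counts in PA-1 under DMSO and 0 in each BAY-850 library. HOXD8 had 0, 0 and 1 counts under DMSO and 4, 2 and 1 after BAY-850. Their adjusted p values were 0.101 and 0.104 by edgeR's quasi-likelihood test. HOXB4 passed with the likelihood ratio test, with the replicate number as a block and without PA-1 DMSO replicate 2, and HOXD8 passed without PA-1 DMSO replicate 3.

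Of 9 genes of the TALE class, the DNA-binding partners of the HOX proteins, 6 were lower and 2 higher in SK-OV-3 than in PA-1 with an adjusted p under 0.05, where 40.2% of all genes were lower and 40.1% higher. Their median log2 difference was -1.63. MEIS2 was at 37.8 ± 1.97 CPM in PA-1 and 12.3 ± 0.579 CPM in SK-OV-3, and PKNOX2 at 10.4 ± 0.408 and 0.0858 ± 0.0652 CPM. MEIS1 was at 4.58 ± 0.553 CPM in PA-1 and 12.99 ± 0.919 CPM in SK-OV-3, and PKNOX1 at 21.3 ± 0.223 and 47.2 ± 2.95 CPM. With BAY-850, 0 of 9 passed in PA-1 and 0 of 8 in SK-OV-3 by edgeR's quasi-likelihood test, where 7.13% and 20.4% of all genes did. An unadjusted p under 0.05 was found for 1 and 3 of them, and for 3618 of 15212 and 5116 of 15348 genes in all.

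Genes of the complexes that silence the clusters moved in both directions in SK-OV-3. Of 19 Polycomb genes, 8 passed the test there, where 20.4% of all genes did, with 4 higher and 4 lower and a median log2 fold change of 0.078. EZH2, the main histone H3K27 methyltransferase, fell (log2 fold change -0.45, standard error 0.1004, adjusted p = 0.00835 by edgeR's quasi-likelihood test) and its relative EZH1 rose (0.40, standard error 0.0686, adjusted p = 0.00185). RBBP4 and RBBP7, histone-binding subunits shared with other complexes, fell by 0.38 and 0.27 on the log2 scale, and RNF2, a ubiquitin ligase for histone H2A, rose by 0.46. JARID2 and PCGF2 rose by 0.26 and 0.29, and CBX6 fell by 0.21. In PA-1, 0 of 19 passed by edgeR's quasi-likelihood test, where 7.13% of all genes did, with 6 at an unadjusted p under 0.05, as were 3618 of 15212 genes, and a median of 0.011.

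Of 10 genes of the MLL and trithorax group and the H3K27 demethylases, 4 passed in SK-OV-3, against 20.4% of all genes, with a median of 0.088. KDM6B, a demethylase that removes the Polycomb mark, rose by 0.73 (standard error 0.0916, adjusted p = 0.000223 by edgeR's quasi-likelihood test), DPY30 rose by 0.25 with an adjusted p of 0.0499, and WDR5 and ASH2L fell by 0.26 and 0.28. In PA-1, 2 of 10 passed, against 7.13% of all genes, with a median of 0.0036, and KDM6B rose by 0.35 and KMT2B by 0.27. In PA-1 KDM6B did not pass in 6 of 18 alternatives and KMT2B in 8 of 18. Both calls were lost with library size scaling alone, with the GC content trend removed, and when DMSO replicate 1 or 2 or BAY-850 replicate 1 or 2 was left out. KMT2B was also lost with library sizes without ribosomal RNA genes and in the fit of all 12 libraries.

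Among 12 genes of retinoid signaling and of the CDX family, which act upstream of the clusters, 7 were tested in SK-OV-3 and 3 passed, all higher, where 10.8% of all genes were. The retinoic acid receptor genes RARA and RARG rose by 0.58 and 0.33 on the log2 scale, and RXRB rose by 0.20 with an adjusted p of 0.0441 by edgeR's quasi-likelihood test. In PA-1, 8 were tested and 1 passed, against 7.13% of all genes, and this gene, RXRA, rose by 0.35 (adjusted p = 0.00945), a call that was lost with library size scaling alone and with the GC content trend removed. The medians were 0.20 in SK-OV-3 and 0.17 in PA-1, and CDX1, CDX2 and CDX4 were below 0.5 CPM in all 4 groups. EZH1, EZH2, RBBP4, RBBP7, RNF2, KDM6B, WDR5, RARA and RARG passed in SK-OV-3 in all 18 alternatives, while ASH2L, CBX6, DPY30, JARID2, PCGF2 and RXRB did not pass in 4 to 11 of them. Without BAY-850 replicate 3, CBX6 (-0.17, adjusted p = 0.0576 by edgeR's quasi-likelihood test) and DPY30 (0.17, adjusted p = 0.0958) did not pass, and the other 13 genes called in these lists did.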

How the data were processed

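RNA-seq of 12 libraries was analysed, 3 for each of 4 groups named in the labels. The values deposited by the authors are expected counts, 1 row for each gene symbol, not normalized. The submitters' processing notes name Bowtie2 2.1.0, RSEM 1.2.15 and hg38, and the labels describe strand-specific libraries from mRNA selected with oligo-dT, while the design text names depletion of ribosomal RNA. The annotation and the strand setting are not given in the sources used here. RSEM divides reads that fit several genes. All columns were matched to samples.

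Here the expected counts were rounded and scaled by TMM in edgeR 4.0.16 (R 4.3.3), with filterByExpr removing genes of low count. Comparisons used edgeR's quasi-likelihood test, with adjustment after Benjamini-Hochberg across every gene tested and a threshold of 0.05. The standard error is the log2 fold change divided by the square root of F, and 95% intervals use a normal multiple of it. Levels per kilobase use the median length of coding transcripts in GENCODE v29. Counting intervals are exact. Alternatives were DESeq2 1.42.0, limma-voom (limma 3.58.1), the likelihood ratio test, other scalings and filters, a replicate block, removal of trends on GC content or length (loess span 0.5), 1 fit of all libraries, and leaving out each library. The pipeline was tested on simulated counts, with changes placed only in genes of higher counts. Members with few counts were not covered by that test. With 3 libraries a group, an exact permutation test of 1 gene reaches a two-sided p of 0.1 at best. Library totals limit the precision of genes below 1 CPM.

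The HOX members and the lists of cofactors, Polycomb, MLL and trithorax, upstream, flanking, antisense and marker genes were chosen with earlier results of these data known. All HOX genes are accounted for, and per-library values are given for members called and for those among the 5 highest per kilobase in each line. Some of these values are not reported here. Other members given per library were chosen after their values were seen. List members are named where called.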

Additional observations from a re-analysis of the deposited data

Results flagged for a closer look

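No HOX gene was singled out for a closer look, since none passed the test of a different response between lines. Values of single libraries were not used for this choice. Among genes of the complexes and pathways that act on the clusters, 12 passed the interaction test between lines. The threshold was an adjusted p under 0.05 by edgeR's quasi-likelihood test, which 14.5% of all genes passed. The 12 were 8 of 19 Polycomb genes, 2 of 10 MLL and trithorax genes, 1 of 9 TALE genes and 1 of 9 upstream genes tested. The values are the SK-OV-3 response minus the PA-1 response on the log2 scale. Among Polycomb genes they were 0.30 for EZH1, 0.51 for RNF2 and 0.39 for PHC3, and -0.38 for EZH2, -0.46 for RBBP4, -0.26 for RBBP7, -0.46 for CBX2 and -0.43 for PHC1. The MLL subunit genes gave -0.35 for WDR5 and 0.36 for DPY30, the cofactor PKNOX1 gave 0.33 and the retinoid receptor gene RXRA gave -0.45. RBBP4 and RNF2 passed in all 23 alternatives, while CBX2 passed in 6, EZH2 in 8 and PKNOX1 in 12 of them.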

How the results depend on the processing

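The call of HOXB9 in SK-OV-3 and the absence of calls in PA-1 held in all 18 alternatives of each comparison. In SK-OV-3 the number of members called was 1 and became 2, by adding HOXB7, with DESeq2, the likelihood ratio test, no filter, at least 10 counts in every library, and the GC content trend removed. Leaving out 1 library gave 1 to 3 (2 without DMSO replicate 1, with HOXB7 added, and 3 without BAY-850 replicate 3). Between lines, 27 became 3 of 4 tested with at least 10 counts in every library, since that filter removes genes silent in PA-1, and 26 to 28 without 1 library. For the interaction, 0 became 1 (HOXB4) with the likelihood ratio test and with the replicate block, and 0 or 1 without 1 library. At a threshold of 0.5 CPM 8 members counted as used in PA-1 with DMSO and 8 with BAY-850, and at 2 CPM it was 2 and 2, against 5 and 5. The small differences that changed sign were never called. HOXB6 in SK-OV-3 was at 0.023 with the GC content trend removed and 0.039 with the length trend removed, and between -0.040 and 0.041 without 1 library. HOXD13 in PA-1 was between -0.063 and 0.21 without 1 library. The HOXB9 interaction was 0.0085 with library size only, 0.082 with the GC content trend removed, 0.029 with the length trend removed, and -0.37 to 0.46 without 1 library. The causes were not tested. The share of all genes called ranged from 2.2% to 11% in PA-1 and from 11.4% to 24.9% in SK-OV-3 over the alternatives. Higher and lower calls over all genes went from 707 and 378 to 235 and 231 with library size only in PA-1, and from 1662 and 1468 to 2029 and 1051 with the GC content trend removed in SK-OV-3. The replicate numbers did not pair the samples (correlations of deviations from -0.028 to 0.0042), and apart from HOXB4 the replicate block changed no call among the HOX members. Members below about 1 CPM rest on few counts, so that only large changes could be seen in PA-1.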

Other observations

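Of 16 antisense and intergenic transcripts of the clusters, 8 were tested between the DMSO groups and 6 were higher in SK-OV-3 with an adjusted p under 0.05 by edgeR's quasi-likelihood test, where 40.1% of all genes were higher and 80.3% passed in either direction. HOXB-AS3 was at 9.44 ± 1.05 CPM (SD, n = 3) in SK-OV-3 with DMSO, HAGLR, in HOXD, at 7.88 ± 0.556 CPM and HOXD-AS2 at 3.78 ± 0.429 CPM, while HOXB-AS3 and HOXD-AS2 had no count in PA-1 and HAGLR was at 0.198 ± 0.0263 CPM. A transcript silent in PA-1 passed the filter only through SK-OV-3, so that it could only be found higher there. HOTAIRM1, in HOXA, was at 4.77 ± 1.25 CPM in PA-1 and 3.42 ± 1.26 CPM in SK-OV-3. HOTAIR, in HOXC, had 2 counts in all. With BAY-850, 0 of 8 transcripts tested in SK-OV-3 and 0 of 1 in PA-1 passed by edgeR's quasi-likelihood test, where 20.4% and 7.13% of all genes did. An unadjusted p under 0.05 was found for 1 and 0 of them, and for 5116 of 15348 and 3618 of 15212 genes in all. HOXB-AS1 was at 2.48 ± 0.346 CPM under DMSO and 3.78 ± 0.410 CPM after BAY-850 in SK-OV-3, without overlap (log2 fold change 0.61, adjusted p = 0.0947).

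Of 8 genes in or around the clusters, where PRAC1 lies within the span of HOXB, 5 were tested between lines. By edgeR's quasi-likelihood test 4 of them passed an adjusted p of 0.05, with 1 higher and 3 lower in SK-OV-3. Of all genes 80.3% passed, with 40.1% higher and 40.2% lower. The lower genes were SKAP2, CALCOCO1 and SMUG1, with log2 differences of -0.21, -0.42 and -0.57. MTX2 was at 64.4 ± 3.89 CPM in PA-1 and 66.5 ± 3.48 CPM in SK-OV-3. SKAP1, next to HOXB, was at 1.11 ± 0.585 CPM in SK-OV-3 and had no count in PA-1 with DMSO. EVX2 and PRAC1 had no count in any group. With BAY-850, 0 of 4 tested in PA-1 and 0 of 5 in SK-OV-3 passed by edgeR's quasi-likelihood test, where 7.13% and 20.4% of all genes did. In each line 1 had an unadjusted p under 0.05, as did 3618 of 15212 genes in PA-1 and 5116 of 15348 in SK-OV-3.

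Markers of the lines also moved with BAY-850 in SK-OV-3. Of 9 epithelial tumor markers, 5 fell and PAX8 rose by 0.55 on the log2 scale, where 9.56% of all genes fell and 10.8% rose, while of 3 pluripotency markers tested DNMT3B rose by 1.18. In PA-1, 1 of 7 epithelial markers (KRT19) rose and 0 of 7 pluripotency markers passed, with 4 at an unadjusted p under 0.05, where 7.13% of all genes passed. The part of these shifts in the HOX results was not tested.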
